A study of Mus musculus with 16 samples.

Results

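Heme oxygenase 1, the metallothioneins and the targets of the transcription factor NRF2 were followed as a set of 10 genes: Hmox1, Mt1, Mt2, Nfe2l2, Nqo1, Gclc, Gclm, Srxn1, Txnrd1 and Txnip. They were listed by symbol, and all 10 were found among the 45706 genes of the count table and passed the filter on low counts. Hmox1, Mt1 and Mt2 were selected on their measured levels, which differed between the genotype labels at Day2, so their Day2 values are a description with no test. The other 7 were chosen by their known roles, with earlier results of these data known. The question was whether that difference extended to the other 7 genes.

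The series holds RNA-seq of mouse bone marrow in 16 libraries, and its design text describes a blood system with a loss of a Gata2 copy that was stressed by transplanting few LSK cells into lethally irradiated wild-type recipients. LSK cells are marrow progenitors that lack lineage markers and carry Sca-1 (Ly6a) and Kit. Groups carry the labels Gata2 or WT: LSK cells at Day0 (3 Gata2, 2 WT), LSK cells at Day2 (2 Gata2, 3 WT) and CD45.2 marrow cells at Week2 (3 Gata2, 3 WT). CD45.2 is an allele of Ptprc with which donor and host blood cells are told apart. The Gata2 allele, the strain, the age, any pooling of animals and the event from which days were counted are unstated in the labels. The labels number the replicates without naming separate animals, so p-values measure the spread between libraries, which may be technical. Libraries held 19.6 to 68.3 M counts in LSK cells and 177 to 321 M at Week2 (M being 1000000 counts).

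Gata2 mRNA was not lower under the Gata2 label. It stood at 611 to 752 CPM (counts per 1000000 counts of the library) in Day0_Gata2 and 329 to 446 CPM in Day0_WT, and at 491 to 737 CPM in Day2_Gata2 and 259 to 291 CPM in Day2_WT. Groups are therefore named as libraries labelled Gata2 or WT. Library 1 of Day0_WT stood apart, with the fewest counts and a correlation of 0.841 with the other Day0_WT library, so results that rest on it are given with and without it. By the Y-linked gene Ddx3y all 5 Day2 libraries were male, and 2 of 5 Day0 and 1 of 6 Week2 libraries were female. Kit averaged 508 to 607 CPM in the LSK groups and 34.9 to 48.1 CPM at Week2. Of the other LSK markers, Flt3 and Procr were lower at Day2 (Flt3 averaged 113 CPM in Day2_Gata2 and 89.6 CPM in Day2_WT, against 486 CPM in Day0_Gata2 and 501 CPM in Day0_WT). These are bulk samples, in which fewer cells of a type and less RNA per cell cannot be told apart.

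NRF2, the product of Nfe2l2, is held low by KEAP1, which presents it to a CUL3 ubiquitin ligase. Oxidants and electrophiles modify KEAP1, NRF2 then accumulates, pairs with small MAF proteins and binds antioxidant response elements, where the heme-regulated repressor BACH1 competes with it, most of all at Hmox1. HMOX1 breaks heme down to biliverdin, iron and carbon monoxide and is prominent in macrophages that recycle red cells. Metallothioneins bind zinc, and their genes respond to the zinc sensor MTF1 through metal response elements. In blood stem and progenitor cells these pathways limit reactive oxygen during stress and proliferation.

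The 250 bases before an annotated start of transcription are shown for both metallothionein genes, which parted at Day2, and for Srxn1, which rose in LSK libraries of both labels. They were taken from RefSeq on GRCm38.p6, where 8 of the 10 members matched. Hmox1 and Gclc had no entry, so their promoters were not scanned. Capitals mark each match, on either strand, to TGACNNNGC (antioxidant response element core), TGANTCAGC (NFE2-MAF element) or TGCGCNC and TGCACNC (metal response element core). The windows lie at chr8:94172368-94172617 (Mt2), chr8:94178839-94179088 (Mt1) and chr2:152105274-152105523 (Srxn1), all on the plus strand.
Mt2: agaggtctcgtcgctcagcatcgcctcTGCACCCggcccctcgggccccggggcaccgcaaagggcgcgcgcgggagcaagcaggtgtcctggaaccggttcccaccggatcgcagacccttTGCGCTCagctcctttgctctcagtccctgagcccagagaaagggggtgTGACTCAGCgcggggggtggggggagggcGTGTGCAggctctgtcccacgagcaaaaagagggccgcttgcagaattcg
Mt1: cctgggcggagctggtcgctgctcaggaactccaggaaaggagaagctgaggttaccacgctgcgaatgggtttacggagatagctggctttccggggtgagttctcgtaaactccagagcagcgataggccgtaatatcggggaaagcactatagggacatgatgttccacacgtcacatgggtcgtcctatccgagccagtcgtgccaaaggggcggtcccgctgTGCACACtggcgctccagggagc
Srxn1: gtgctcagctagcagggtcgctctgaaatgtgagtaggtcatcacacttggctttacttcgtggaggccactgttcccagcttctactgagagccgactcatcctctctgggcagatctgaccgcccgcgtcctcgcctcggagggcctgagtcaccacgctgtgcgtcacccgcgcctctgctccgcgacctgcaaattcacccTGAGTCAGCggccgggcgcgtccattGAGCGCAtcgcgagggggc

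Mt2 held 1 stretch, TGACTCAGC, that matched both the antioxidant response element core and the NFE2-MAF element, with its first base at -79 from the start. It also held 3 metal response element cores, at -223, -128 and -50. Mt1 held 1 metal response element core, at -23, and no match to either NRF2-type motif in this window. Its merged exons, 1246 bases, leave no intron in its annotated span, so the start used need not be the main one. Bases after that start were not scanned, and the motif difference from Mt2 holds for these windows only. Srxn1 held an NFE2-MAF element at -45 and a metal response element core at -19. Of the others, Gclm, Nfe2l2 and a promoter of Txnrd1 had an antioxidant response element core at -134, -240 and -92, and Nqo1 had none of the 3 motifs in its window. Over 32851 mouse promoters of the same length, the antioxidant response element core was found in 10.2%, the NFE2-MAF element in 1.02% and the metal response element core in 21.4%. A match of letters is not a bound site.

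At Day2, Hmox1 and Mt2 were far lower in the libraries labelled Gata2, and Mt1 was lower to a smaller degree. None of the other 7 genes passed the test, but 0.0% of all genes did, so the test does not set these 7 apart. CPM here are scaled between libraries by the trimmed mean of M values (TMM). Hmox1 (ENSMUSG00000005413, chr8:75093621-75100589) had 5.81 and 1.93 CPM in Day2_Gata2, against 165, 129.7 and 139 CPM in Day2_WT. The groups were far apart, with a log2 difference of -5.22 (SE 0.61). Mt2 (ENSMUSG00000031762, chr8:94172664-94173568) had 0.652 and 0.335 CPM in Day2_Gata2, against 9.19, 8.57 and 13.7 CPM in Day2_WT. Its log2 fold change was -4.40 (SE 0.61), and again the groups did not overlap. Mt1 (ENSMUSG00000031765, chr8:94179082-94180327), its neighbour on the chromosome, had 67.3 and 103 CPM in Day2_Gata2, against 172, 174 and 219.9 CPM in Day2_WT. The Mt1 difference was smaller, at -1.15 (SE 0.21), also without overlap.

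**Figure D1:**
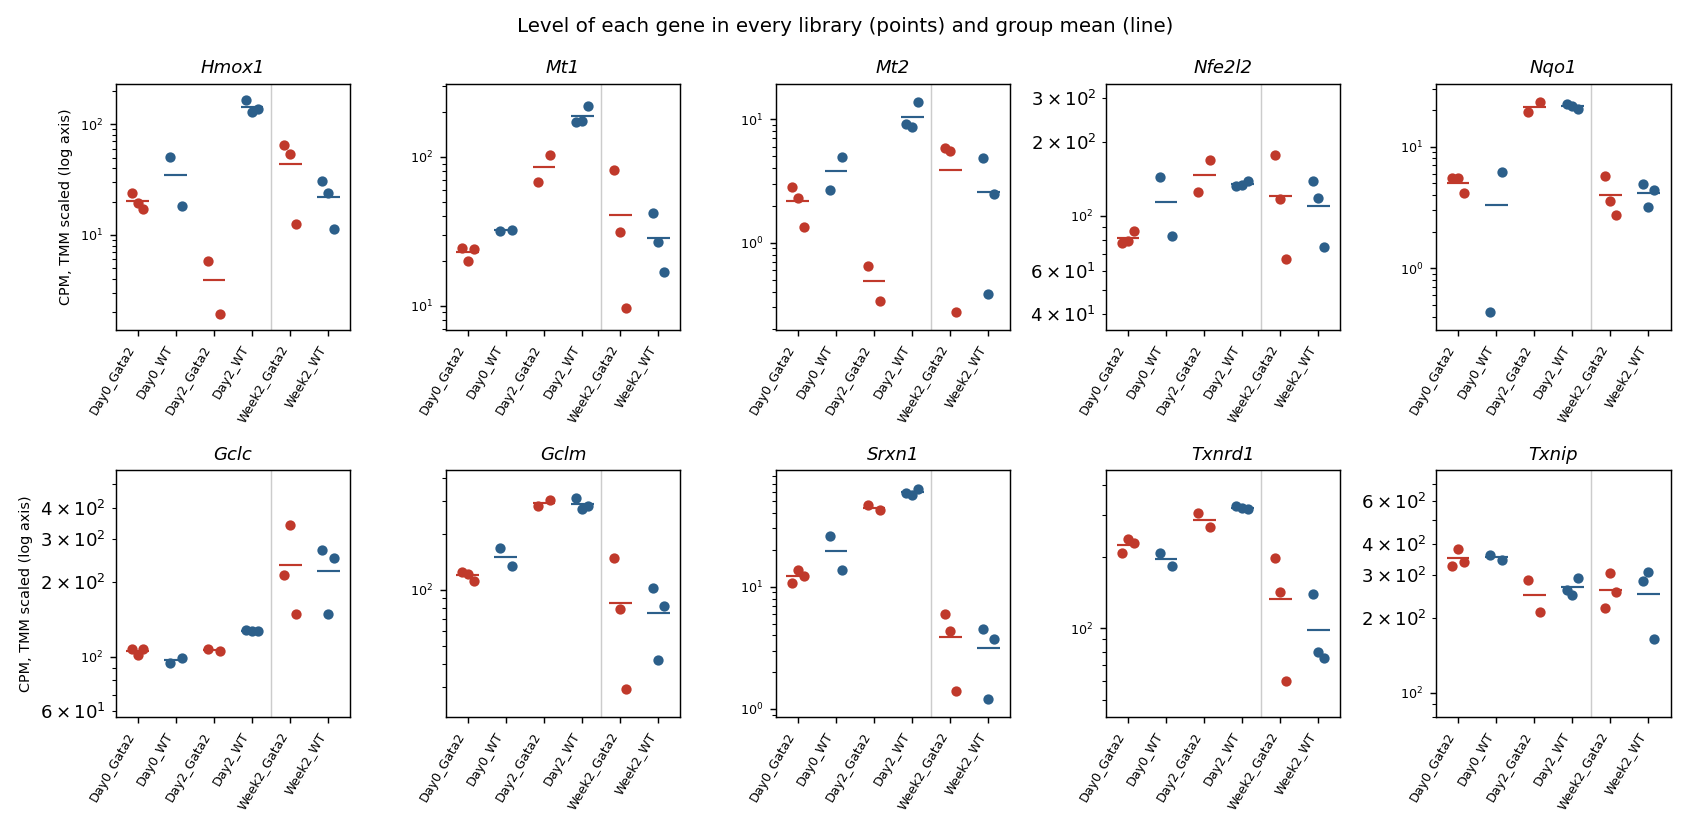
TMM-scaled CPM (log axis) of each of the 10 genes in every library, by group, with a bar at the group mean. In Day2 libraries Hmox1 and Mt2 lie at 5.81 CPM or below in Gata2 and at 8.57 CPM or above in WT, while Nqo1, Gclm and Txnip mix between the labels.

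The same Day2 counts, on which these genes were selected, can be written as shares within a library, which need no scaling. Mt2 made up 0.959% and 0.323% of the Mt1 and Mt2 counts together in Day2_Gata2, against 5.07%, 4.68% and 5.87% in Day2_WT. Wilson 95% intervals, which cover counting error only, were 0.684 to 1.34% and 0.202 to 0.517% in Day2_Gata2, and 4.65 to 5.53%, 4.26 to 5.14% and 5.46 to 6.31% in Day2_WT. Hmox1 made up 9.51% and 3.42% of the counts of Hmox1 and its constitutive paralogue Hmox2 in Day2_Gata2, against 78.4%, 70.0% and 71.5% in Day2_WT. Hmox2 itself averaged 54.9 ± 0.489 CPM in Day2_Gata2 (SD, n = 2) and 52 ± 5.87 CPM in Day2_WT (SD, n = 3). An overlapping antisense gene, Gm45774, is annotated at Mt2, and the labels do not state whether counting used strand.

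**Figure D2:**
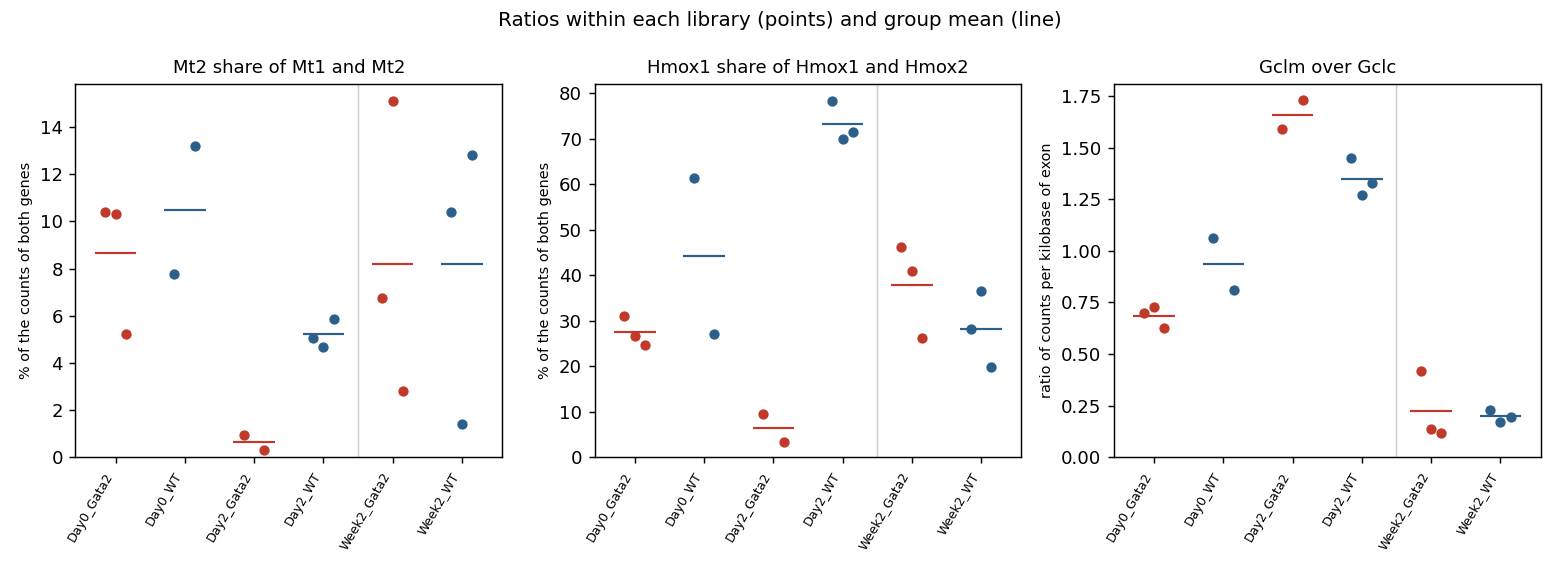
Share of Mt2 in the Mt1 and Mt2 counts and share of Hmox1 in the Hmox1 and Hmox2 counts (percent), and the ratio of Gclm to Gclc per kilobase of exon, 1 point per library. In Day2_Gata2 both shares lie below those of Day2_WT (0.323 to 0.959% against 4.68 to 5.87% for Mt2).

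Nfe2l2 and its enzyme targets did not follow Hmox1 and Mt2 in size. Nfe2l2 had 125 and 169 CPM in Day2_Gata2, against 132, 133 and 138 CPM in Day2_WT, a log2 fold change of 0.13 (95% interval -0.36 to 0.63). Nqo1, a quinone reductase often read as an NRF2 reporter, had 19.1 and 23.3 CPM in Day2_Gata2, against 22.4, 21.4 and 20.5 CPM in Day2_WT. The WT values fell within the range of the Gata2 values for both genes, though the Nqo1 interval was wide (-1.59 to 1.56). Gclm, the regulatory subunit of glutamate-cysteine ligase, the first enzyme of glutathione synthesis, had 283 and 304 CPM in Day2_Gata2, against 309, 271 and 282 CPM in Day2_WT. Its log2 fold change was 0.03 (interval -0.27 to 0.33), and its groups overlapped.

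Gclc, Srxn1 and Txnrd1 were somewhat lower in Day2_Gata2 without passing the test. Gclc, the catalytic subunit of the same ligase, had 107 and 105 CPM in Day2_Gata2, against 128, 127 and 127 CPM in Day2_WT, a log2 fold change of -0.26 (interval -0.52 to -0.01, adjusted p = 0.878 by edgeR's quasi-likelihood test). Srxn1, sulfiredoxin, which repairs over-oxidized peroxiredoxins, had 46.7 and 42.1 CPM in Day2_Gata2, against 58.4, 56.9 and 63.4 CPM in Day2_WT (-0.42, adjusted p = 0.981). Txnrd1, the cytosolic thioredoxin reductase, had 307 and 267 CPM in Day2_Gata2, against 327, 321 and 318 CPM in Day2_WT (-0.17, adjusted p = 1). Txnip, which binds and inhibits thioredoxin and is not an NRF2-activated gene, had 285 and 213 CPM in Day2_Gata2, against 261, 248 and 293 CPM in Day2_WT, with overlap. On mm10 these genes lie at chr2:75675513-75704641 (Nfe2l2), chr8:107388225-107403206 (Nqo1), chr3:122245557-122270732 (Gclm), chr9:77754535-77794485 (Gclc), chr2:152105516-152111376 (Srxn1), chr10:82833951-82897712 (Txnrd1) and chr3:96557957-96561883 (Txnip). Unnamed gene models on the opposite strand overlap Gclm and Txnip, with 7922 counts at Gclm against its own 226547 over the 16 libraries and 3220 at Txnip against its own 548911.

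Across the genome, 0.0% of 19162 genes passed an adjusted p of 0.05 at Day2 (0 genes by edgeR, with 1070 at an unadjusted p under 0.05, and 168 by DESeq2 and 23 by limma voom), against 0 of the 7 genes here. The labels did not overlap in 21.1% of all genes, and in 11.1% every Day2_Gata2 library lay below every Day2_WT library, as in 3 of the 7: Gclc, Srxn1 and Txnrd1. The median log2 fold change of the 7 was -0.10, beside -0.00 for all genes tested. The 95% intervals of the 7 reached down to -1.59 for Nqo1, the widest, and to -0.27 for Gclm.

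Related gene groups gave the same kind of picture at Day2. None of the genes tested in the 8 lists of redox, heme and zinc genes, nor in the TXNIP family and heat shock lists, passed the test. Of all genes, 0.0% did. Over the 11 other settings, 0 to 1 of the other NRF2 targets passed, where 0 to 168 of all genes did. Among 12 regulators and partners of NRF2, the small MAF gene Maff averaged 4.94 ± 0.0635 CPM in Day2_Gata2 and 9.78 ± 2.72 CPM in Day2_WT (SD; log2 fold change -0.98, adjusted p = 0.822). Osgin1, another NRF2 target, averaged 3.54 ± 0.0373 CPM in Day2_Gata2 and 7.47 ± 1.3 CPM in Day2_WT (-1.08, adjusted p = 0.736). The iron exporter gene Slc40a1 averaged 11.8 ± 0.697 CPM in Day2_Gata2 and 23.9 ± 1.14 CPM in Day2_WT (-1.02, adjusted p = 0.99). Those 3 genes had lower values in every Day2_Gata2 library than in any Day2_WT library, as did 11.1% of all genes. Others among the 2 genes of lowest p in a list lay on either side. Gpx3 (-0.84) was wholly below too, while Ucp2 (0.63), Mlxip (0.52), the zinc gene Slc39a10 (0.46) and Hsf1 (0.35) were wholly above. Of 11 other NRF2 targets tested, 8 had a negative log2 fold change, with a median of -0.18, and of 10 zinc and MTF1 genes 6 did, with a median of -0.09.

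Markers of macrophages, which express Hmox1, were set beside this difference. The summed level of 12 macrophage markers was 227 to 278 CPM in Day2_Gata2 and 273 to 391 CPM in Day2_WT. The 2 ranges overlap. Most of the sum was Csf1r, a receptor that other myeloid cells carry too, which averaged 167 ± 36 CPM in Day2_Gata2 and 210.4 ± 48.1 CPM in Day2_WT (SD). Of the 11 markers tested, 9 had a negative log2 fold change and 1 a positive one, with a median of -0.35, the same sign as Hmox1, and none passed the test. Spic, a transcription factor of macrophages that recycle red cells, averaged 0.336 ± 0.00043 CPM in Day2_Gata2 and 1.43 ± 0.808 CPM in Day2_WT, and it and Csf1r were named after their values were seen. Timd4 had no count in either group and Marco had none in Day2_WT. Summed neutrophil markers overlapped (1342 to 2324 CPM in Day2_Gata2, 1674 to 2999 CPM in Day2_WT), as did summed erythroid markers (313 to 413 CPM in Day2_Gata2, 352 to 404 CPM in Day2_WT). The part of such cells in the Hmox1 and Mt2 values was not tested.

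Over time, the NRF2 targets Gclm and Srxn1 rose between Day0 and Day2 in LSK libraries of both labels, and others passed the test under 1 label. In libraries labelled Gata2, 3 of the 7 genes rose and none fell, where 4.48% of all genes rose, 4.82% fell and 9.3% changed. In libraries labelled WT, 5 of the 7 rose and none fell, where 11.9% of all genes rose, 17.9% fell and 29.9% changed. The median log2 fold change of the 7 was 0.86 in Gata2 and 0.72 in WT, beside -0.07 and -0.11 for all genes. Every Day2 library lay above every Day0 library for 5 of the 7 in each label, as it did for 25.9% of all genes in Gata2 and 24.8% in WT, and below for Txnip, as for 34.4% of all genes in Gata2 and 26.7% in WT. Both comparisons are of Day2 over Day0, with the 4 LSK groups in 1 fit.

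Gclm and Srxn1 rose under both labels. Gclm had 283 and 304 CPM in Day2_Gata2, against 125, 122 and 112 CPM in Day0_Gata2 (1.29 on the log2 scale, SE 0.13, adjusted p = 0.000546). In WT libraries Gclm had 309, 271 and 282 CPM at Day2, against 167 and 134 CPM at Day0 (0.93, SE 0.14, adjusted p = 0.00174). Every Day2 library was above every Day0 library. Srxn1 had 46.7 and 42.1 CPM in Day2_Gata2, against 10.7, 13.6 and 12.3 CPM in Day0_Gata2 (1.87, SE 0.25, adjusted p = 0.00278). In WT libraries Srxn1 had 58.4, 56.9 and 63.4 CPM at Day2, against 25.8 and 13.6 CPM at Day0 (log2 rise 1.60, SE 0.27, adjusted p = 0.00362). Without library 1 of Day0_WT the Srxn1 rise in WT was 2.10 (adjusted p = 0.000193). Both genes stayed called under both labels whichever LSK library was left out. The Gclm calls were lost with all 16 libraries in 1 fit (adjusted p = 0.0616 in Gata2 and 0.0866 in WT), and the Srxn1 call in WT with the WT groups fitted alone (adjusted p = 0.053).

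The other targets rose under a single label or missed the threshold. Txnrd1 rose in WT, with 327, 321 and 318 CPM in Day2_WT, against 207 and 184 CPM in Day0_WT (0.72, adjusted p = 0.00359, lost in 2 of 11 other settings). In Gata2 it had 307 and 267 CPM at Day2, against 208, 237 and 228 CPM at Day0 (0.36, adjusted p = 0.0948). Gclc rose in WT, with 128, 127 and 127 CPM in Day2_WT, against 94.3 and 98.8 CPM in Day0_WT (0.40, adjusted p = 0.0275). That call was lost in 9 of 11 other settings (adjusted p = 0.199 with all 16 libraries) and with 8 of 10 libraries left out in turn (0.0683 without library 1 of Day0_WT). In Gata2 its level was near even, at 107 and 105 CPM in Day2_Gata2, against 107, 101 and 107 CPM in Day0_Gata2 (0.02, adjusted p = 0.956). Nqo1 rose in WT, with 22.4, 21.4 and 20.5 CPM in Day2_WT, against 0.435 and 6.15 CPM in Day0_WT (2.67, SE 0.79, adjusted p = 0.0318). The 0.435 CPM belong to the Day0_WT library that stood apart, and without it the rise was 1.77 (adjusted p = 0.00186). The call for Nqo1 was lost in 5 of 11 other settings, among them the WT groups fitted alone (adjusted p = 0.152), and with 7 of 10 libraries left out in turn. With a covariate for TEC models (mostly unspliced transcripts, whose part of the counts was highest in that library, at 0.362%), the Nqo1 value in WT turned to -0.89 (adjusted p = 0.413). Across the LSK libraries that part was 0.131 to 0.362% at Day0 and 0.0314 to 0.0702% at Day2, without overlap. Changes over time therefore cannot be fully told apart from this part of the counts, for Nqo1 or any other gene. In Gata2, Nqo1 had 19.1 and 23.3 CPM at Day2, against 5.53, 5.51 and 4.14 CPM at Day0 (2.07, SE 0.70, adjusted p = 0.098, but 0.000117 without library 1 of Day0_WT).

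Nfe2l2 rose in Gata2, with 125 and 169 CPM in Day2_Gata2, against 78, 79.1 and 86.9 CPM in Day0_Gata2 (0.86, SE 0.22, adjusted p = 0.0397). In WT it had 132, 133 and 138 CPM at Day2, against 144 and 83 CPM at Day0 (0.24, adjusted p = 0.441), and without library 1 of Day0_WT, which holds the 144, it was 0.66 (adjusted p = 0.0265). The Gata2 call for Nfe2l2 was lost in 7 of 11 other settings and when any of the 8 libraries outside Day0_WT was left out. Txnip was lower at Day2 under both labels, with every Day2 library below every Day0 library, at -0.49 in Gata2 (adjusted p = 0.0787) and -0.41 in WT (adjusted p = 0.0668).

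Hmox1, Mt2 and Mt1 are given over time as values only. Hmox1 had 5.81 and 1.93 CPM in Day2_Gata2, against 23.8, 19.6 and 17.2 CPM in Day0_Gata2, a log2 fold change of -2.38 (SE 0.52). In WT it had 165, 129.7 and 139 CPM at Day2, against 51.1 and 18.2 CPM at Day0 (2.06, SE 0.51, and 2.96 without library 1 of Day0_WT). Hmox1 was thus lower at Day2 in Gata2 and higher at Day2 in WT. Mt2 had 0.652 and 0.335 CPM in Day2_Gata2, against 2.83, 2.31 and 1.34 CPM in Day0_Gata2 (-2.12, SE 0.55). In WT it had 9.19, 8.57 and 13.7 CPM at Day2, against 2.66 and 4.96 CPM at Day0 (1.46, SE 0.52, and 1.05 without library 1). Mt1 was higher at Day2 under both labels, at 1.90 (SE 0.20) in Gata2 and 2.56 (SE 0.23) in WT. Its values were 67.3 and 103 CPM in Day2_Gata2, against 24.4, 20.1 and 24.2 CPM in Day0_Gata2. In WT they were 172, 174 and 219.9 CPM at Day2, against 31.6 and 32.5 CPM at Day0.

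**Figure D3:**
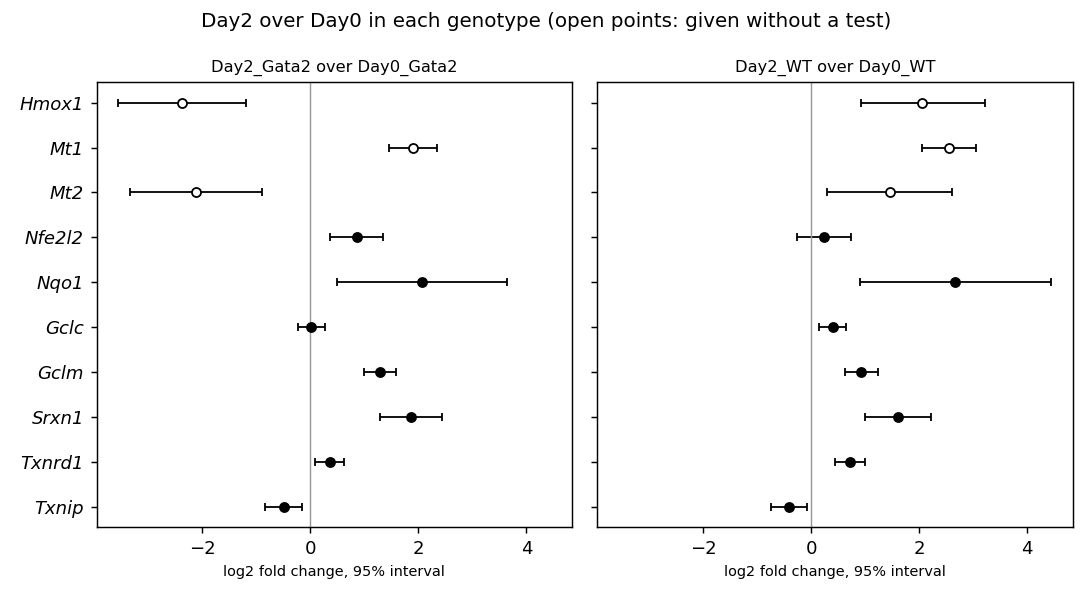
Log2 fold change of Day2 over Day0 with its 95% interval in libraries labelled Gata2 (left) and WT (right); open points are given without a test. Hmox1 and Mt2 lie left of 0 in Gata2 (-2.38 and -2.12) and right of 0 in WT (2.06 and 1.46), while Gclm and Srxn1 lie right of 0 in both.

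The test of the difference between the genotype effects at Day2 and at Day0 called 0 of the 7 genes and 0.0% of all genes (0 genes by edgeR, with 1984 at an unadjusted p under 0.05, and 247 by DESeq2 and 0 by limma voom). The largest of the 7 in size was Nfe2l2, at 0.61 (interval -0.08 to 1.31, adjusted p = 0.509), followed by Nqo1 at -0.60 with an interval of -2.86 to 1.66. A rise called under 1 label and not the other is therefore not shown to differ between them. Without library 2 of Day0_WT, 3 of the 7 passed (Nqo1 at -3.69, Nfe2l2 at 0.82 and Gclc at -0.57), as did 31.1% of all genes, so the 3 are no result about these genes. Without library 1 they were at 0.28, 0.18 and -0.34 and none passed. The untested values were -4.45 for Hmox1, -3.58 for Mt2 and -0.66 for Mt1. Of 11 other NRF2 targets 11 were negative (median -0.38), beside a median of -0.06 for all genes. Of the NADPH supply list 6 of 6 were (-0.51), of glutathione genes 13 of 18 (-0.27) and of zinc genes 5 of 10 (-0.18). Lists of other kinds leaned this way too, with 7 of 10 heat shock genes (-0.17) and 6 of 8 LSK markers (-0.34). None of the list genes passed.

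The ratio of Gclm to Gclc per kilobase of exon shifted with the rise of Gclm. It was 1.59 and 1.73 in Day2_Gata2, against 0.628 to 0.726 in Day0_Gata2. In WT libraries it was 1.27 to 1.45 at Day2, against 1.06 and 0.812 at Day0. At Week2 it was 0.118 to 0.416 in Gata2 and 0.17 to 0.228 in WT.

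Partner groups are counted beside the shares of all genes given above (4.48% rose and 4.82% fell in Gata2, 11.9% rose and 17.9% fell in WT). In a list drawn up for NADPH supply (G6pdx, Pgd, Taldo1, Tkt, Me1 and Idh1), all 6 genes rose in WT (median 1.54) and 3 of 6 in Gata2 (median 0.80). Among them G6pdx, the entry enzyme of the pentose phosphate pathway, averaged 252 ± 20.4 CPM in Day2_Gata2 and 116 ± 17.7 CPM in Day0_Gata2 (1.12, adjusted p = 0.00301). In WT, G6pdx averaged 249 ± 22.7 CPM at Day2 and 83.9 ± 9.96 CPM at Day0 (1.57, adjusted p = 0.000468). Of 18 glutathione genes, 6 rose and 1 fell in Gata2, and 9 rose and 1 fell in WT. Chac1, which degrades glutathione, was among them, at 15.9 ± 0.914 CPM in Day2_Gata2 and 0.259 ± 0.0685 CPM in Day0_Gata2 (5.92, adjusted p = 0.00122). Of 11 thioredoxin and peroxiredoxin genes 1 rose in Gata2 and 4 in WT, with Prdx3, a mitochondrial peroxiredoxin, in both (1.18 in Gata2, adjusted p = 0.00206, and 0.91 in WT, adjusted p = 0.00395). Of 11 other NRF2 targets 3 rose under each label, including the ferritin light chain gene Ftl1 (0.82 in Gata2, adjusted p = 0.022, and 1.11 in WT, adjusted p = 0.00359).

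Regulators were called about as often as all genes. Among 12 NRF2 regulators and partners, 1 fell in Gata2, where 9.3% of all genes changed, and 2 rose and 2 fell in WT, where 29.9% did. Cul3, the scaffold of the ligase that degrades NRF2, fell in both: it averaged 45.1 ± 23.4 CPM in Day2_Gata2 and 133 ± 0.452 CPM in Day0_Gata2 (-1.56, adjusted p = 0.0274), and 27.6 ± 9.41 CPM in Day2_WT and 99.6 ± 25.7 CPM in Day0_WT (-1.85, adjusted p = 0.00497). Bach2, a relative of BACH1, fell in WT (-2.47, adjusted p = 0.00259) and was -1.43 in Gata2 (adjusted p = 0.0583). Of 8 heme genes, 1 rose in Gata2 and 3 in WT, with the heme transporter gene Slc48a1 in both (0.83, adjusted p = 0.0323, and 1.37, adjusted p = 0.00247). Of 10 zinc genes, 1 rose in Gata2, and 4 rose and 1 fell in WT. Of 10 superoxide and peroxide genes, 3 rose in Gata2 and 5 in WT, including the mitochondrial superoxide dismutase gene Sod2 in Gata2 (0.87, adjusted p = 0.00606). Of the 6 genes of the TXNIP family and glucose sensing list, none passed in Gata2 and Mlxip fell in WT (-1.06, adjusted p = 0.0034).

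Some markers of other cell types differed between Day0 and Day2 too, and their counts are to be read beside the 9.3% of all genes that changed in Gata2 and the 29.9% in WT. Neutrophil markers summed to 1342 to 2324 CPM in Day2_Gata2, against 634 to 1145 CPM in Day0_Gata2, and to 1674 to 2999 CPM in Day2_WT, against 314 to 1046 CPM in Day0_WT. The neutrophil granule gene Ngp rose under both labels (2.80 in Gata2, adjusted p = 0.00295, and 3.75 in WT, adjusted p = 0.00079). Of 10 erythroid markers 3 fell and 1 rose in Gata2, and 6 fell and 1 rose in WT, and of 10 lymphoid markers 3 fell in Gata2 and 6 in WT. Cd3e, Cd3g and Cd8a had no count at Day2. Of 11 macrophage markers 1 fell in Gata2, and 1 rose and 1 fell in WT, and of 8 LSK markers 3 fell under each label. Of 9 stromal and endothelial markers 1 rose and 1 fell in Gata2, and 2 rose and 2 fell in WT. The heat shock gene Hspa1b, which cell handling can induce, fell under both labels (-6.29 in Gata2, adjusted p = 0.000108, and -4.39 in WT, adjusted p = 0.000131), in a list of 10 where 3 fell under each label, 1 rose in Gata2 and 2 rose in WT. The part of these shifts in the rises of the NRF2 targets was not tested.

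At Day0, 0 of the 10 genes passed the test and 0.0% of all genes did (0 genes by edgeR, with 2586 at an unadjusted p under 0.05, and 441 by DESeq2 and 0 by limma voom). Groups did not overlap for 32.6% of all genes, and for 5 of the 10 here. Srxn1 had 10.7, 13.6 and 12.3 CPM in Day0_Gata2, against 25.8 and 13.6 CPM in Day0_WT (-0.69, adjusted p = 0.341). Hmox1 had 23.8, 19.6 and 17.2 CPM in Day0_Gata2, against 51.1 and 18.2 CPM in Day0_WT (-0.77, SE 0.47, adjusted p = 0.46), and without library 1 of Day0_WT its value was 0.15. The high Hmox1 and Srxn1 values both came from that library, and without it Srxn1 was at -0.16. Mt1 was at -0.49 (adjusted p = 0.357), at -0.50 without library 1 and at -0.27 without library 2 of Day0_WT. Mt2 was at -0.83 (adjusted p = 0.455), at -1.20 without library 1 and at -0.11 without library 2. Without library 2 of Day0_WT, which leaves library 1 alone in its group, 4 of the 10 passed (Nqo1 at 3.72, Hmox1 at -1.15, Srxn1 at -0.89 and Nfe2l2 at -0.63), but so did 39.9% of all genes, so the 4 are no result about these genes.

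At Week2, in CD45.2 marrow, 0 of the 10 genes passed and all 10 overlapped between labels, where 0.0% of 36485 genes passed (0 genes by edgeR, with 87 at an unadjusted p under 0.05, and 1 by DESeq2 and 12866 by limma voom) and 1.41% did not overlap. Hmox1 had 64.8, 53.7 and 12.5 CPM in Week2_Gata2, against 30.4, 24.1 and 11.2 CPM in Week2_WT (0.99, interval -0.32 to 2.31, adjusted p = 1). The low Week2_Gata2 value came from library 3, which was the lowest of its group for each of the 10 genes except Txnip. Mt2 had 5.89, 5.52 and 0.276 CPM in Week2_Gata2, against 4.89, 0.383 and 2.48 CPM in Week2_WT (0.59, interval -1.76 to 2.95). Both labels thus spanned more than the difference between them. Mt1 ran from 9.63 to 81.6 CPM in Week2_Gata2 and from 16.9 to 42.1 CPM in Week2_WT.

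The sign of the Hmox1 difference at Week2 was positive, unlike at Day2. Summed macrophage markers were 558, 395 and 197 CPM in Week2_Gata2, against 258, 319 and 186 CPM in Week2_WT, with the lowest of each group in the library where Hmox1 was lowest. All 12 macrophage markers had a positive log2 fold change (median 0.95), and C1qb, a complement gene of tissue macrophages, averaged 23.4 ± 20.5 CPM in Week2_Gata2 and 3.65 ± 4.3 CPM in Week2_WT (SD, n = 3 each; 2.68, adjusted p = 1). The part of macrophages in the Week2 Hmox1 values was not tested. Nqo1 was low at Week2, at 2.72 to 5.7 CPM in Gata2 and 3.2 to 4.89 CPM in WT, while Gclc reached 149 to 342 CPM in Gata2 and 149 to 269 CPM in WT.

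Levels per kilobase of exon used all annotated exons of a gene merged. On these lengths Txnip had the highest mean level in 3 of the 4 LSK groups. It had 112 CPM per kilobase in Day0_Gata2, 114 in Day0_WT and 79.7 in Day2_Gata2, where it overlapped Mt1 with 68.5. The merged length of Mt1, 1246 bases, leaves no intron, so its level per kilobase may be understated. Its rank below Txnip in Day2_Gata2 is therefore not settled. In Day2_WT Mt1 led with 152, ahead of Txnip with 85.6 and Hmox1 with 82.5, whose ranges overlapped. In Day2_Gata2 Hmox1 and Mt2 were the lowest, at 2.21 and 0.839 CPM per kilobase, and overlapped. In Day2_WT Mt2 had 17.8 CPM per kilobase, above Nqo1 with 13.8, and in Day0_WT Nqo1 was the lowest at 2.12.

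Across the 10 LSK libraries, Hmox1 and Mt2 resembled each other more than the other members, with a Pearson r of 0.92 on log2(CPM + 1). Both were selected for their Day2 levels, which are among these values, so their likeness was set by the choice. All r values here are descriptions over 10 libraries that share group and depth. Hmox1 had an r of 0.03 with Nqo1, 0.17 with Gclm, 0.34 with Srxn1 and 0.64 with Gclc, and Mt2 had an r of 0.67 with Gclc. Mt1 instead resembled Srxn1 (0.94) and Gclm (0.92), and had an r of 0.52 with Mt2, next to it on the chromosome. Gclm and Srxn1 were at 0.97, and Txnip was negative with Gclm (-0.84).

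Among 10637 genes, the 5 most like Hmox1 were Tmem167b (0.930), Mt2 (0.924), P4ha2 (0.919), Ptprf (0.911) and Gch1 (0.909). P4ha2 averaged 0.385 ± 0.349 CPM in Day2_Gata2 and 7.93 ± 2.3 CPM in Day2_WT. For Mt2 they were Hmox1, Selenbp1 (0.913), Atf3 (0.896), Clybl and Tnip3 (0.891 each). Atf3, a stress-induced transcription factor, averaged 3.54 ± 0.912 CPM in Day2_Gata2 and 18.2 ± 2.84 CPM in Day2_WT. For Mt1 they were Grhpr (0.989), Stc2 (0.987), S100a6 (0.985), Syngr1 and Cth (0.981 each), and for Txnip Antxr2 (0.980), Cables2 (0.974), Dennd2d (0.968), Pick1 (0.960) and Rtl5 (0.941). All were picked for likeness over libraries that include Day2, so the Day2 differences of P4ha2 and Atf3 were set by the choice.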

How the data were processed

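Raw read counts per Ensembl gene, 1 column per library, were deposited by the authors. Per the submitters' processing notes, reads were handled with Trimmomatic 0.38 and STAR 2.5.2b on mm10. Not given in the sources used here are the counting program, its strand setting and which of the 2 library kits in the labels' protocols made each library. Symbols came from GENCODE M21 (45143 of 45706 IDs matched), and promoters from RefSeq. The members and the 16 gene lists beside them were chosen with earlier results of these data known. Every member is named. Of each list, genes named are among the 2 of lowest p whose mean reached 5 CPM in either group, with some exceptions. The markers without counts, Kit, Hmox2, Cd3e, Cd3g and Cd8a were named for their role. Csf1r and Spic were named after their values were seen.

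Counts were filtered by expression, scaled by TMM and tested with edgeR 4.0.16 (quasi-likelihood, R 4.3.3), with Benjamini-Hochberg adjustment over all genes and a threshold of 0.05. The 10 LSK libraries formed 1 fit with a mean per group, and the 6 Week2 libraries another. There were 6 comparisons. Contrasts of Hmox1, Mt1 and Mt2 that use Day2 libraries carry no p. Fitted fold changes come from the counts, and CPM are printed for each library. The pattern likeness used log2(CPM + 1). Alternatives were other scalings, filters, tools (DESeq2 1.42.0, limma 3.58.1), fits, covariates and each library left out. The code was tested on simulated data. No 2 libraries agreed within counting noise. Precision is limited by 2 or 3 libraries a group.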

Additional observations from a re-analysis of the deposited data

Results flagged for a closer look

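Hmox1 and Mt2 stood on opposite sides of their Day0 levels at Day2 under the 2 labels: below every Day0 library in both Day2_Gata2 libraries and above every Day0 library in all 3 Day2_WT libraries. The change from Day0 to Day2 in Gata2 minus that in WT was -4.45 for Hmox1 and -3.58 for Mt2 on the log2 scale. This difference was not tested, since both genes were taken up for their Day2 values. Without library 1 of Day0_WT the change of Hmox1 in WT was 2.96, and that of Mt2 was 1.05. With the share of TEC models as a covariate, Hmox1 was at -1.71 in Gata2 and 4.17 in WT, and Mt2 at -2.54 in Gata2 and 0.31 in WT. That share was higher in every Day0 than in every Day2 LSK library, so it cannot be fully told apart from time.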

How the results depend on the processing

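The Day2 count of 0 of 7 genes held under all 11 other settings and with any LSK library left out. Of all genes only 0 to 168 were called over those settings, and 0 to 48 with a library left out. The 0 of 7 is therefore no result about these genes. With a library left out, the untested Day2 value of Hmox1 ranged from -6.12 to -4.63 and that of Mt2 from -4.85 to -4.00. For Day2 over Day0, the count in Gata2 (3 of 7) was 5 with DESeq2, 5 with limma voom, 5 with the groups fitted alone, 1 with all 16 libraries and 2 to 6 with a library left out, 6 without library 1 of Day0_WT, where 24.3% of all genes passed. In WT (5 of 7) it was 3 without a count filter, 2 with limma voom, 2 with all 16 libraries, 2 with the groups alone and 3 to 6 with a library left out. It was 3 with the replicate number as a block. With RLE or upper quartile scaling and with the filter of 5 CPM it stayed 5, with Txnip called in place of Gclc. Calls over all genes moved with the setting too. Over the other settings they ran from 745 to 5676 in Gata2, against 1782 in the main fit. In WT they ran from 1199 to 7963, against 5720. The counts of members are to be read beside these and are no result about the 7 genes alone. Same-numbered libraries correlated at -0.08 to 0.11 in LSK cells and at 0.72, -0.77 and 0.5 at Week2. These are deviations from means of 2 or 3 libraries, which sum to 0 within a group. The check therefore cannot tell whether the numbers pair the libraries, and the main fit did not pair them. Leaving out a library gave 0 to 4 of 10 at Day0 and 0 to 3 of 7 for the difference of genotype effects, the highest in both without library 2 of Day0_WT, where 39.9% and 31.1% of all genes passed (8655 and 6733, against 0 with any other library left out) and the lone library is assumed to vary like the other groups. At Week2 limma voom called 2 (Hmox1 and Txnrd1), but also 12866 of 36485 genes, so the 2 are no result about these genes. Upper quartile scaling moved the median of all genes by -0.16 in Day2_WT over Day0_WT, and the share of calls that were higher to 28.7%, from 40%. The causes were not tested.

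Signs turned only for uncalled values, apart from Nqo1 in WT over time. With the TEC share as covariate, Hmox1 was 0.48, Nfe2l2 0.13 and Nqo1 -0.98 at Day0. Nqo1 was 0.44 and Gclm -0.01 at Day2. Over time Gclc was -0.01 in Gata2 and Nqo1 -0.89 in WT. In the difference of genotype effects, Nfe2l2 was -0.11, Nqo1 1.42 and Srxn1 -0.51. Txnip at Day0 was 0.13 without a filter, 0.01 with voom and 0.00 with all 16 libraries. Nqo1 at Day2 was 0.00 with RLE scaling and with DESeq2, 0.02 with upper quartile scaling and with the filter of 5 CPM in 2 libraries, and 0.04 without a filter. Gclc over time in Gata2 was -0.00 with RLE scaling and DESeq2, -0.03 with upper quartile scaling, -0.17 without a filter and -0.06 with 5 CPM. In the difference of effects, Srxn1 was -0.06 with voom, and Txnip 0.02 with upper quartile scaling and 0.04 with 5 CPM. At Week2, upper quartile scaling gave Nfe2l2 -0.04, Gclc -0.08, Gclm -0.01 and Txnip -0.05, and the filter of 5 CPM gave -0.06, -0.08, -0.05 and -0.02. Gclc was -0.03 with all 16 libraries, and Nqo1 0.16 with RLE, 0.17 with DESeq2 and 0.15 with sex as covariate. With a library left out, the ranges at Day0 were -1.15 to 0.15 for Hmox1, -0.28 to 3.72 for Nqo1 and -0.12 to 0.14 for Txnip. At Day2 they were -0.09 to 0.44 for Nfe2l2, -0.16 to 0.23 for Nqo1, -0.01 to 0.18 for Gclm and -0.22 to 0.10 for Txnip. Over time they were -0.12 to 0.05 for Gclc in Gata2 and -0.09 to 0.66 for Nfe2l2 in WT. In the difference of effects they were -3.69 to 0.28 for Nqo1, -0.25 to 0.51 for Srxn1 and -0.31 to 0.11 for Txnip. At Week2 they were -0.52 to 1.11 for Mt1, -0.27 to 0.47 for Nfe2l2, -0.42 to 0.20 for Nqo1, -0.30 to 0.33 for Gclc, -0.52 to 0.61 for Gclm, -0.20 to 0.77 for Srxn1 and -0.17 to 0.26 for Txnip.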
